A study of Mus musculus with 4 samples.

Results

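The 46 genes described here encode the scaffold around cells and the machinery of a mesenchymal cell: collagens, laminins and other basement membrane proteins, fibronectin and elastic fibre proteins, matricellular proteins, matrix proteases and their inhibitors, enzymes that hydroxylate or crosslink collagen, mesenchymal structural proteins and the transcription factors that drive a mesenchymal state. They were taken by name from the 55487 annotated genes of the count table, and all 46 were found. The list was drawn up with earlier results of these data known. The cells sequenced were LPC-HRas, a line of mouse liver cancer cells that carries the oncogene HRas in its name and was left unstimulated, with 2 libraries in each of 2 groups. The control group holds control 1 and control 2, and the other group, which overexpresses UBXN9, holds UBXN9 1 and UBXN9 2. Both groups are LPC-HRas cells grown in the same serum-containing medium. The labels give neither the vector nor whether the overexpressing cells were a clone or a pool, and nothing says that the libraries of a group came from separate cultures, so a p-value here measures only the spread between these libraries.

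Extracellular matrix is built in layers. Fibrillar collagens form triple helices that are cleaved and crosslinked into fibres, collagen IV and laminins form the separate sheet-like networks of basement membranes, and matricellular proteins such as thrombospondins sit on this scaffold and signal to cells without bearing load. In liver, stellate cells and fibroblasts are the main makers of fibrillar matrix, and epithelial tumour cells can express many of the same genes when they lose epithelial features. Proteases of the MMP family degrade the matrix and TIMP proteins inhibit them.

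Of the 46 genes, 42 had enough reads to be tested, and 5 were higher and 5 lower in UBXN9-overexpressing cells. The 5 that rose were Thbs1, Col1a1, Acta2, Timp3 and Col5a2, and the 5 that fell were Cygb, Col18a1, Col4a1, Loxl2 and Snai1. Those 10 are 23.8% of the members tested, while 7.44% of the 13230 genes tested in the whole table were called, 5.06% higher and 2.38% lower. Over the 42 members the median log2 fold change was -0.00235, with 21 members above and 21 below 0, and the median size of the change regardless of sign was 0.46. Over the whole table these medians were -0.01 and 0.27. Both UBXN9 libraries were higher than both controls in 15 members, lower in 12, and overlapped the controls in 15, so that the groups did not overlap in 64.3% of the members, beside 50.6% of all genes tested (25.0% higher and 25.6% lower). Among genes with at least 5 CPM in 2 libraries, 10 of 37 members (27.0%) and 7.26% of all genes were called. The counts moved with the libraries used: 3 members were higher and 3 lower without control 1 and again without control 2, 11 and 6 without UBXN9 1, and 9 and 11 without UBXN9 2. Eln, Postn, Ccn2 and Loxl1 had too few reads for the test. The test was edgeR's quasi-likelihood test with Benjamini-Hochberg adjustment over all 13230 genes, and calls were made at an adjusted p under 0.05. A level is given in CPM, the count divided by the library total after TMM composition scaling and set to a common base, and is written in the order control 1, control 2, UBXN9 1, UBXN9 2 or as mean ± SD (n = 2 libraries). Every log2 fold change is UBXN9 over control.

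**Figure D1:**
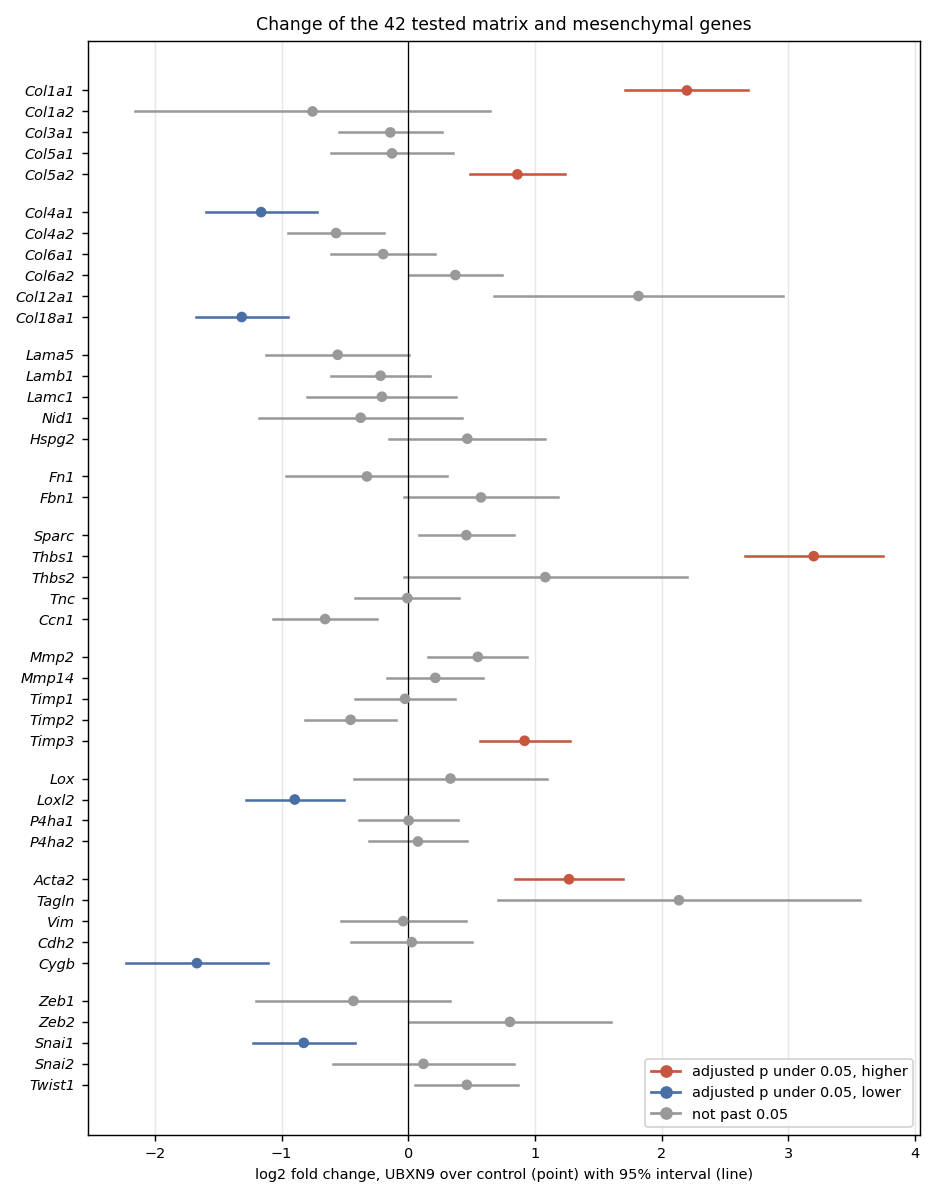
The log2 fold change of UBXN9 over control for each of the 42 tested members is drawn as a point with its 95% interval as a line, grouped by role. Red points rose, blue points fell and grey points were not called; Thbs1 lies farthest to the right at 3.20 and Cygb is the lowest called gene at -1.67.

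The libraries were checked first. Totals of the deposited counts ran from 21814969 to 26292686. Aspscr1, the mouse gene for UBXN9 (chromosome 11, 120672973 to 120709447, GRCm38), had 92.1 and 115 CPM in the controls and 392 and 380 CPM in the UBXN9 libraries, a log2 fold change of 1.90 (SE 0.18, edgeR adjusted p = 0.00144). Libraries of the same group also differed from each other with gene length, which matters here because matrix genes are long. Among the 16 tested members with at least 8000 bases of exon, a length chosen after the values were seen, 16 were lower in control 2 than in control 1 (median log2 difference -0.31) and 14 were higher in UBXN9 2 than in UBXN9 1 (median 0.61). In the 26 shorter members the medians were -0.01 and 0.05. Across the 42 members, which share libraries and are not independent replicates, exon length had a Spearman correlation of -0.65 with the difference between the controls, 0.67 with that between the UBXN9 libraries and 0.03 with that between the groups. The part of RNA quality or library preparation in these differences was not tested.

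**Figure D2:**
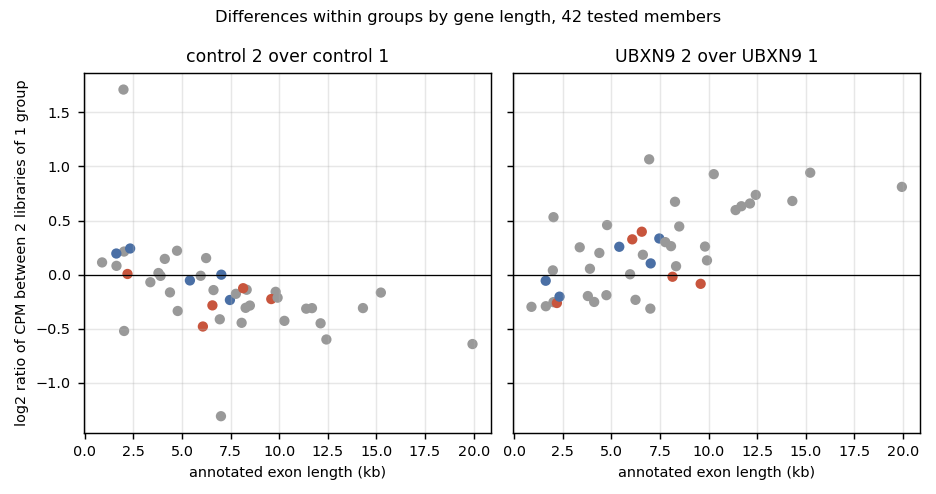
Each dot is a tested member, placed by exon length in kilobases and by the log2 ratio of the libraries of a group. The left panel has control 2 over control 1 and the right panel UBXN9 2 over UBXN9 1. Red dots are members that rose between groups, blue dots those that fell and grey dots the others; long members lie below 0 between the controls and mostly above 0 between the UBXN9 libraries.

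Fibrillar collagens gave 2 genes higher and 0 lower among 5 tested, and no further member of the group was below an unadjusted p of 0.05. DESeq2 and limma-voom also gave 2 higher and 0 lower. Col1a1, the alpha1 chain of collagen I (chromosome 11, 94936224 to 94953042), stood at 30.3 and 24.9 CPM in the controls and at 109 and 144 CPM in the UBXN9 libraries. Both UBXN9 libraries were far above both controls. The mean rose from 27.6 ± 3.82 to 127 ± 24.5 CPM, 4.59-fold, with a log2 fold change of 2.20 (SE 0.21, edgeR adjusted p = 0.00136). Its partner chain gave another picture. Collagen I is normally built from alpha1 and alpha2 chains, and Col1a2, the alpha2 chain, was close to the detection limit in all libraries, with 18, 10, 5 and 11 counts. Its log2 fold change was -0.76 (95% interval -2.16 to 0.64, edgeR adjusted p = 0.535). Per kilobase of exon, Col1a1 had 83.4 and 104 times the level of Col1a2 in the controls and 832 and 657 times in the UBXN9 libraries.

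Col5a2, a chain of the fibril-nucleating collagen V (chromosome 1, 45374321 to 45503282), had 78.4, 67.1, 136 and 128 CPM. The groups did not overlap, and the log2 fold change was 0.86 (SE 0.16, 1.82-fold, edgeR adjusted p = 0.0216). This call was lost without composition factors (adjusted p = 0.0509), without control 1 (0.0786) and without control 2 (0.309). Col5a1, the other main chain of collagen V, had 198, 162, 139 and 190 CPM, with the groups overlapping and a log2 fold change of -0.13 (edgeR adjusted p = 0.791). Col3a1, the chain of collagen III, lies next to Col5a2 on chromosome 1 with 24614 bases between the genes. Its levels of 287, 257, 225 and 269 CPM overlapped between groups, and its log2 fold change was -0.14 (95% interval -0.55 to 0.26, edgeR adjusted p = 0.711). Col3a1 therefore stood at 3.58 and 3.75 times Col5a2 per kilobase in the controls and at 1.61 and 2.05 times in the UBXN9 libraries.

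Among the 6 other collagens, 2 fell and 0 rose by edgeR, DESeq2 and limma-voom alike, while 2 (Col6a2 and Col12a1) were higher at an unadjusted p under 0.05. Col18a1 encodes collagen XVIII, a basement membrane collagen whose C-terminal fragment is endostatin (chromosome 10, 77052178 to 77166548). It had 304 CPM in both controls and 118 and 127 CPM in the UBXN9 libraries. The log2 fold change was -1.31 (SE 0.15, 2.49-fold lower, edgeR adjusted p = 0.00368). Ranked per kilobase among the 46 members, Col18a1 moved from rank 9 in control to rank 24 in UBXN9-overexpressing cells.

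Col4a1 and Col4a2 encode the chains that make up the common collagen IV of basement membranes, and they lie head to head on chromosome 8 with annotated starts that overlap by 22 bases. Col4a1 (11198423 to 11312826) had 115, 97.6, 41.96 and 52.9 CPM. It fell 2.24-fold, with a log2 fold change of -1.16 (SE 0.18, edgeR adjusted p = 0.0122). Col4a2 (11312805 to 11449287) had 89.2, 80.8, 53.6 and 60.9 CPM, also with both UBXN9 libraries under both controls, but its log2 fold change of -0.57 (SE 0.16) missed the threshold (edgeR adjusted p = 0.0878). Col4a2 passed with no filter on low counts (0.0468), with an offset for gene length (0.0404) and without UBXN9 2 (0.00517). Per kilobase, Col4a1 over Col4a2 was 1.14 and 1.07 in the controls, against 0.694 and 0.770 with UBXN9, so the ratio of these chains was lower in both UBXN9 libraries.

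The chains of collagen VI, which forms beaded filaments, were abundant and neither passed. Col6a1 had 511, 456, 392 and 451 CPM (log2 fold change -0.20, edgeR adjusted p = 0.584). Col6a2 had 202, 183, 242 and 256 CPM (log2 fold change 0.37, edgeR adjusted p = 0.226). Per kilobase, Col6a1 over Col6a2 was 4.82 and 4.73 in the controls against 3.08 and 3.35 in the UBXN9 libraries. Col12a1, a fibril-associated collagen, was low throughout, with 16, 12, 28 and 71 counts and a log2 fold change of 1.82 (SE 0.48, edgeR adjusted p = 0.0723). It passed with no filter (0.00327), with the length offset (0.0379) and without UBXN9 1 (0.000704).

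**Figure D3:**
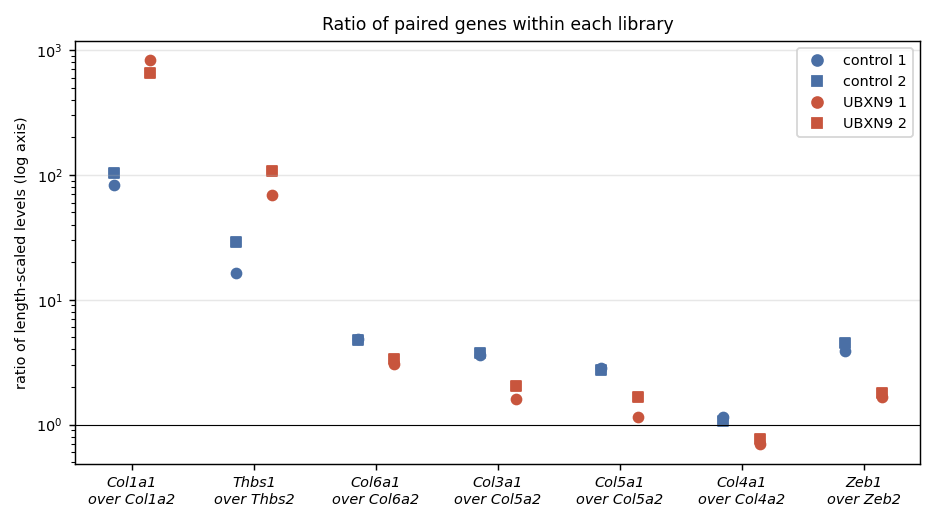
The ratio of paired genes per kilobase of exon is drawn on a log axis for each library, with blue for control, red for UBXN9, circles for replicate 1 and squares for replicate 2. The ratio of Col1a1 to Col1a2 lies at 83.4 and 104 in the controls, against 832 and 657 with UBXN9. Lamb1 over Lamc1, whose ratio overlapped between groups, is not drawn, nor are Timp3 over Timp2 and Snai1 over Snai2.

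These ratios compare genes measured in the same library, and with 2 libraries against 2 an exact two-sided permutation test cannot give a p below 0.333. They are therefore given as values only. Of the 10 pairs computed, the ratio overlapped between groups in 1, Lamb1 over Lamc1. The pairs were picked by name and most hold a called member, so their separation partly restates those calls. The share over gene pairs in general was not computed.

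The members include 5 laminin, nidogen and perlecan genes, which encode other basement membrane proteins. Of these 5, 0 were called by edgeR, DESeq2 or limma-voom, with 0 at an unadjusted p under 0.05. Lama3 and Nid2, of the wider lists, are given further below. Lama5, the alpha5 laminin chain, had 464, 374, 227 and 343 CPM. Both UBXN9 libraries were lower, but the libraries of each group were far apart and the log2 fold change of -0.56 (SE 0.24) did not pass (edgeR adjusted p = 0.237). Lamb1 had 264, 228, 201 and 221 CPM and Lamc1, the gamma1 chain that pairs with it, 306, 248, 185 and 295 CPM. Nid1, encoding nidogen-1, which links laminin to collagen IV, had 309, 232, 135 and 282 CPM. UBXN9 1 alone was low. Its log2 fold change of -0.38 (SE 0.34, edgeR adjusted p = 0.593) became -1.01 (3.33e-05) without UBXN9 2 and 0.06 without UBXN9 1. Lama5 and Lamc1 also passed without UBXN9 2 (adjusted p = 0.000829 and 0.0283). Hspg2, encoding perlecan, had 611, 493, 586 and 939 CPM, high in UBXN9 2 alone, with a log2 fold change of 0.47 (edgeR adjusted p = 0.371, and 0.0141 without UBXN9 1).

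Fn1, encoding fibronectin, was second only to Vim among the members per kilobase in both groups. It had 2859, 2308, 1616 and 2504 CPM, with overlapping groups and a log2 fold change of -0.33 (95% interval -0.96 to 0.31, edgeR adjusted p = 0.556). Fbn1, encoding the microfibril protein fibrillin-1, had 83.0, 60.8, 83.0 and 131 CPM (log2 fold change 0.57, edgeR adjusted p = 0.26, and 0.000116 without UBXN9 1). Neither gene was at an unadjusted p under 0.05, and neither was called by DESeq2 or limma-voom. Eln, encoding elastin, had no counts in control 1 or control 2 and held 6 and 5 counts in UBXN9 1 and 2. Set against a floor of 3 counts over the control group, that is 3.8-fold higher. The floor allows for counting error in the control group alone and leaves out that of the UBXN9 counts, so 3.8 is not a lower limit. Count intervals cover counting error only.

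Of the matricellular genes, 5 of 7 were tested and 1 was called. Thbs1 encodes thrombospondin-1, a secreted glycoprotein known to block angiogenesis and to activate latent TGF-beta (chromosome 2, 118111876 to 118127133). It had 27.2 and 19.6 CPM in the controls and 191 and 240 CPM in the UBXN9 libraries. The mean rose from 23.4 ± 5.44 to 215 ± 34.3 CPM, 9.19-fold, with a log2 fold change of 3.20 (SE 0.23, edgeR adjusted p = 0.000525), the largest of the 42 tested members. Its place per kilobase among the 46 members went from rank 34 to rank 12. Thbs2, the related thrombospondin-2, was much lower at 1.91, 0.771, 3.19 and 2.56 CPM, and its log2 fold change of 1.08 (SE 0.47) did not pass (edgeR adjusted p = 0.246).

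The other matricellular genes did not pass. Ccn1, a target of YAP and SRF signalling, had 78.4, 90.9, 58.4 and 49.0 CPM. Both UBXN9 libraries lay under both controls, with a log2 fold change of -0.66 (SE 0.17, edgeR adjusted p = 0.0716), and it was called by DESeq2 (0.0322), without composition factors (0.0401) and with the length offset (0.0222). Ccn2, its close relative, held 12, 6, 8 and 11 counts, and the ratio of UBXN9 to control was 1.09 (exact 95% counting interval 0.543 to 2.21). Sparc, a collagen-binding glycoprotein, had 183, 185, 270 and 235 CPM, without overlap (log2 fold change 0.46, edgeR adjusted p = 0.15). Tnc, encoding tenascin-C, had 147, 130, 123 and 152 CPM (log2 fold change -0.01, 95% interval -0.42 to 0.40). Postn, encoding periostin, held 1, 3, 10 and 11 counts, and its ratio was 5.43 (1.83 to 21.8).

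Matrix proteases and inhibitors gave 1 call in 5, in an inhibitor. Timp3, which binds to the matrix and inhibits MMP and ADAM family proteases, had 77.4 and 71.0 CPM in the controls and 141 and 139 CPM in the UBXN9 libraries (chromosome 10, 86300372 to 86349506). Its log2 fold change was 0.92 (SE 0.15, 1.89-fold, edgeR adjusted p = 0.0134), and the call was lost without control 1 (0.0782) and without control 2 (0.203). Syn3, on the opposite strand, overlaps 21.3% of its exon bases and held at most 3 counts in any library. Timp2 lay the other way at 310, 308, 221 and 230 CPM, with a log2 fold change of -0.46 (SE 0.15) that did not pass (edgeR adjusted p = 0.14). Per kilobase, Timp3 over Timp2 went from 0.119 and 0.110 in the controls to 0.305 and 0.290 in the UBXN9 libraries. Timp1, the smallest member gene at 888 bases of exon, overlapped between groups at 110, 119, 124 and 101 CPM. Mmp2, a gelatinase, had 174, 166, 227 and 270 CPM (log2 fold change 0.55, edgeR adjusted p = 0.104). Mmp14, the membrane-bound protease that activates it, had 410, 407, 473 and 474 CPM (log2 fold change 0.21, edgeR adjusted p = 0.516).

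Of the enzymes that modify collagen, 4 of 5 were tested and 1 fell. Loxl2 is a lysyl oxidase that crosslinks collagen and is known for its work on collagen IV (chromosome 14, 69609068 to 69695834). It had 114 and 110 CPM in the controls and 55.0 and 65.8 CPM in the UBXN9 libraries, a log2 fold change of -0.90 (SE 0.16, 1.86-fold lower, edgeR adjusted p = 0.0204). Without control 1 the adjusted p was 0.1002 and without control 2 it was 0.116. The antisense gene Gm27177 overlaps 5.6% of its exon bases and held 676, 594, 675 and 644 counts. Lox, the founding lysyl oxidase, was low at 3.09, 2.45, 2.94 and 4.03 CPM (log2 fold change 0.33, edgeR adjusted p = 0.625), and Loxl1 held 5, 2, 0 and 3 counts, a ratio of 0.444 (0.0740 to 1.94). The prolyl hydroxylase subunits, needed for stable collagen helices, stayed near 0 with overlapping groups. P4ha1 had 152, 168, 174 and 146 CPM (log2 fold change 95% interval -0.39 to 0.39) and P4ha2 80.9, 89.9, 97.3 and 82.8 CPM (-0.31 to 0.46).

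Mesenchymal structural genes split, with Acta2 higher and Cygb lower among 5 tested. Acta2, the smooth muscle actin of myofibroblasts (chromosome 19, 34241090 to 34255590), had 17.7 and 17.8 CPM in the controls and 46.6 and 38.9 CPM in the UBXN9 libraries. It rose 2.41-fold, with a log2 fold change of 1.27 (SE 0.18, edgeR adjusted p = 0.00784). Tagln, another smooth muscle gene, had 4, 11, 28 and 38 counts and a log2 fold change of 2.14 (SE 0.60, edgeR adjusted p = 0.088, and 0.0353 with a replicate block). The antisense gene Gm48529 overlaps 62.4% of the exon bases of Tagln and held 26, 17, 8 and 26 counts, and since the handling of strand is not given, reads of the overlapping pair cannot be told apart. Cygb, encoding cytoglobin, a globin that marks hepatic stellate cells in normal liver (chromosome 11, 116645595 to 116654313), had 13.8, 16.3, 5.08 and 4.41 CPM. It fell 3.18-fold, with a log2 fold change of -1.67 (SE 0.24, edgeR adjusted p = 0.00794), the largest fall among the called members. Vim, encoding the intermediate filament vimentin, was the highest member per kilobase in both groups. Its levels were 2432, 2834, 2729 and 2393 CPM, with a log2 fold change of -0.04 (95% interval -0.53 to 0.46). Cdh2, encoding N-cadherin, had 76.9, 56.5, 61.8 and 74.2 CPM (log2 fold change 0.03, 95% interval -0.45 to 0.51).

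**Figure D4:**
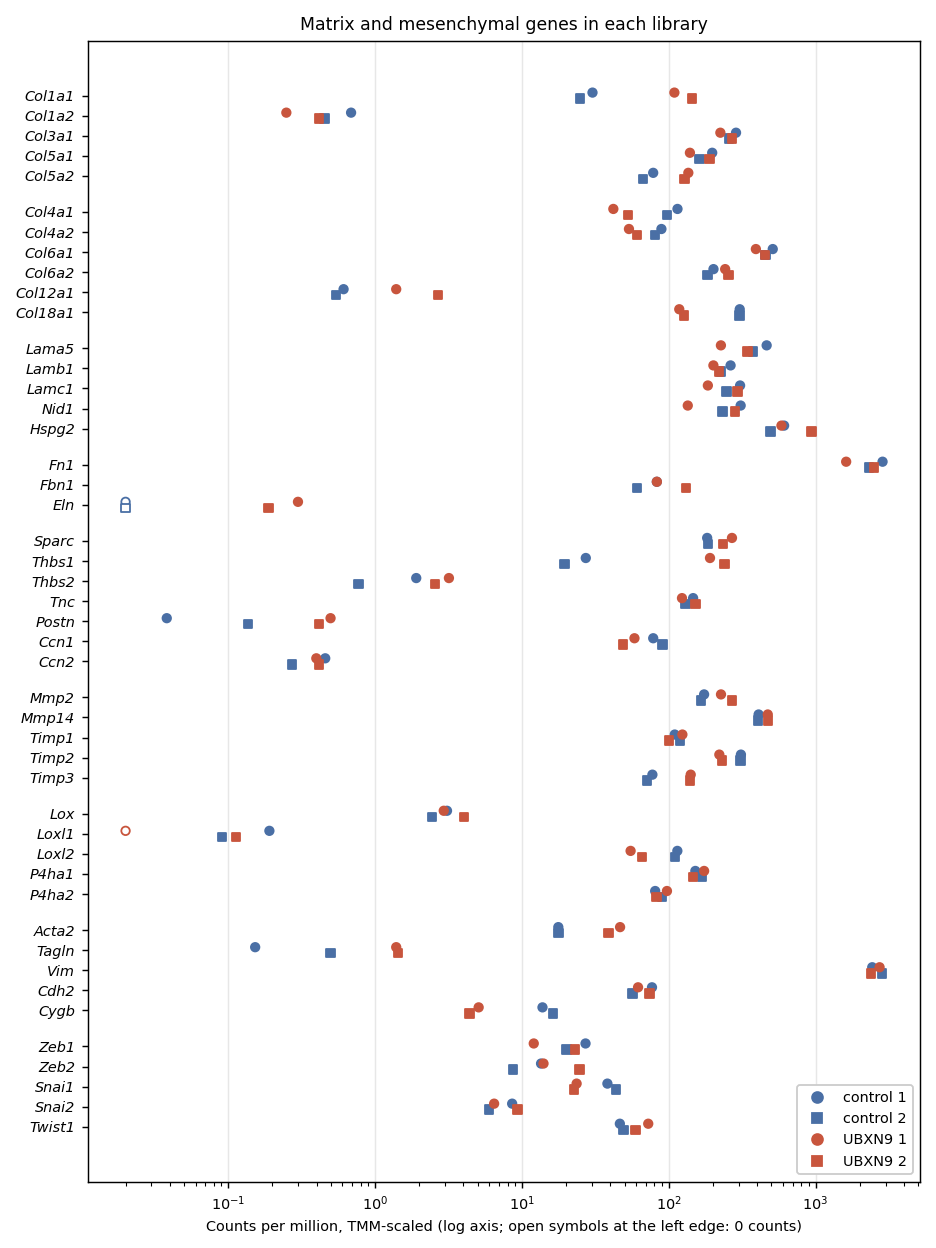
Levels in CPM of all 46 members are drawn on a log axis for each library, grouped by role, with blue for control, red for UBXN9, circles for replicate 1 and squares for replicate 2. Vim and Fn1 lie highest, at or above the 1616 CPM of Fn1 in UBXN9 1. Among the tested members, Thbs1 shows the widest gap between blue and red points. Open symbols at the left edge stand for 0 counts.

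Of the 5 transcription factors 1 was called. Snai1, a zinc finger repressor of epithelial genes (chromosome 2, 167538195 to 167542814), had 38.2 and 43.8 CPM in the controls and 23.6 and 22.7 CPM in the UBXN9 libraries. The log2 fold change was -0.82 (SE 0.17, 1.77-fold lower, edgeR adjusted p = 0.0336). The call was lost with a replicate block (0.0842), without control 1 (0.0980) and without control 2 (0.380). Snai2, its relative, overlapped between groups at 8.59, 5.99, 6.47 and 9.35 CPM. The ZEB repressors lay on opposite sides of 0. Zeb1 had 27.1, 20.2, 12.0 and 22.9 CPM (log2 fold change -0.43, edgeR adjusted p = 0.515). Without UBXN9 2 its log2 fold change was -0.98. Zeb2 had 13.5, 8.67, 14.0 and 24.6 CPM (log2 fold change 0.80, edgeR adjusted p = 0.23). Without UBXN9 1 its log2 fold change was 1.15. Zeb2 passed with no filter on low counts (edgeR adjusted p = 0.0336) and with the length offset (0.0456). Per kilobase, Zeb1 over Zeb2 was 3.90 and 4.53 in the controls, against 1.67 and 1.81 with UBXN9. Twist1, a bHLH factor, had 46.5, 49.2, 72.5 and 59.3 CPM (log2 fold change 0.46, edgeR adjusted p = 0.175).

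Promoter sequence is shown for 3 of the called genes because their promoters hold short motifs of the factors that the lists name. RefSeq promoter windows (GRCm38.p6, 250 bases before to 50 after the start) were found for 29 of the 46 members. The called members Thbs1, Col1a1, Col5a2, Cygb and Loxl2 had none and were not searched. A CArG-like box, the form bound by SRF, was searched as CCNNNNNNGG with at most 1 G or C among the inner bases, a pattern that reads the same on both strands. It was present in 9.98% of all 32851 windows and in 5 of the 36 member windows. These belong to Acta2, Col1a2, Lamb1, Mmp14 and Timp3. Acta2 and Timp3 rose while the other 3 were not called. The E-box of SNAI and ZEB proteins, CAGGTG on either strand, was in 20.2% of all windows and in 5 of the 36 (Lama5, Snai1, Sparc, Timp2 and Timp3). The runs below read 5′ to 3′ on the strand of the gene, with the CArG-like box of Acta2 and Timp3 and the E-box of Snai1 in capitals. The E-box of Timp3, also within its run, is left in lower case, and the motifs were chosen after the values were seen. The Acta2 boxes, which start 84 and 34 bases before the RefSeq start, are given with 10 bases on either side, and lie in the first exon of the longer GENCODE model. Timp3 is shown up to the end of its box, which starts 47 bases before the RefSeq start, and Snai1 over the whole 250 bases, with its E-box as CACCTG 126 bases before the start.
Acta2, chr19:34255438-34255467, minus strand: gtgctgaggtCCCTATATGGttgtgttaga
Acta2, chr19:34255388-34255417, minus strand: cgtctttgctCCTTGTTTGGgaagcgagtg
Timp3, chr10:86300162-86300374, plus strand: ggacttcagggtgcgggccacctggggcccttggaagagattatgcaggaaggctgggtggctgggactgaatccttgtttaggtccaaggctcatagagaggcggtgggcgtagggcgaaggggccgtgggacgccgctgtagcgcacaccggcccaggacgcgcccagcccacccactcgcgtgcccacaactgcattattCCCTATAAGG
Snai1, chr2:167537945-167538194, plus strand: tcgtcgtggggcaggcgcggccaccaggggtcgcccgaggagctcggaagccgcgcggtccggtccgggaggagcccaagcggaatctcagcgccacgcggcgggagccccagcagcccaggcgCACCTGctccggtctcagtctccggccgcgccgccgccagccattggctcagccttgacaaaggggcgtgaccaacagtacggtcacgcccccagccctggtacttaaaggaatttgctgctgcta

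CATTCC, the TEAD motif, was in 14.7% of all windows and in 8 of the 36 member windows, from 8 members. TGANTCA, the AP-1 motif, was in 7.81% of all windows and in 2 of the 36, from 2 members. GGGCGG, the SP1 motif, was in 35.7% of all windows and in 25 of the 36, from 21 members. Each was searched on both strands, and some members had several windows. A match describes the letters in the window and is not evidence of binding.

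Around the members, 6 wider lists of matrix genes, receptors and signalling genes held 199 genes, 160 of them tested, of which 17 rose and 10 fell. That is 16.9% of those tested, beside the 7.44% of all genes. Without control 1 the lists gave 10 higher and 7 lower, without control 2 they gave 5 and 4, without UBXN9 1 they gave 35 and 15 and without UBXN9 2 they gave 23 and 25. Of the 24 tested genes for folding, processing and export of collagen, 2 rose and 1 fell (12.5%). Adamts2 and Adamts14, procollagen N-proteinases that trim fibrillar collagens, had log2 fold changes of 2.45 (SE 0.46, edgeR adjusted p = 0.0227) and 1.06 (SE 0.23, 0.0397). Adamts2 remained low, at 0.458, 0.272, 1.94 and 2.15 CPM, and Adamts14 had 18.4, 14.7, 28.9 and 40.4 CPM. P3h4, a scaffold protein of collagen lysine hydroxylation, fell at 76.7, 87.2, 39.6 and 30.3 CPM (log2 fold change -1.23, SE 0.19, edgeR adjusted p = 0.0112). Without control 2 the adjusted p was 0.173 for Adamts2 and 0.256 for Adamts14, and without composition factors it was 0.0503 and 0.109, while P3h4 kept its call without any 1 library.

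Of other matrix components, 47 of 61 were tested, and 7 rose and 5 fell (25.5% of those tested). Mfap2, a microfibril protein, fell most, from 7.06 and 6.76 CPM to 0.498 and 0.415 CPM, 15.1-fold (log2 fold change -3.92, SE 0.33, edgeR adjusted p = 0.000915). Col11a1 and Col2a1, chains of cartilage-type fibrils, fell with log2 fold changes of -2.59 (SE 0.46, edgeR adjusted p = 0.018) and -1.73 (SE 0.38, 0.0401). Col11a1 had 13.7, 10.8, 1.05 and 2.94 CPM, and its fall was -3.55 on the log2 scale without UBXN9 2. Without composition factors the adjusted p was 0.0516 for Col11a1 and 0.0659 for Col2a1. Col7a1, the anchoring fibril collagen, fell from 4.12 and 4.13 CPM to 0.796 and 1.06 CPM (log2 fold change -2.14, edgeR adjusted p = 0.0122). Col15a1, which encodes the closest relative of collagen XVIII, moved opposite to Col18a1. It had 1.98, 1.68, 9.56 and 10.7 CPM, a 5.50-fold rise (log2 fold change 2.46, SE 0.27, edgeR adjusted p = 0.00288). Lama3, a laminin chain of epithelial basement membranes, rose from 0.763 and 1.27 to 6.47 and 4.94 CPM (log2 fold change 2.49, edgeR adjusted p = 0.00977). Matn2, a matrilin, rose from 9.005 and 7.71 to 26.2 and 25.5 CPM (log2 fold change 1.63, edgeR adjusted p = 0.00457), and Col5a3, the third chain of collagen V, from 6.98 and 8.08 to 17.3 and 16.4 CPM (1.16, 0.022). The calls of Col2a1 and Col5a3 were lost when either control was left out, with adjusted p of 0.168 and 0.117 without control 2.

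The other 4 calls of that list, named after their values were seen, lay near the threshold. Col6a3, the third main chain of collagen VI, rose from 25.8 and 20.5 to 37.9 and 52.7 CPM (log2 fold change 0.97, edgeR adjusted p = 0.0488), a call lost without control 2 (0.320), without composition factors (0.132), with limma-voom (0.0543) and with the filter of 5 CPM in 2 libraries (0.0575). Nid2, the paralogue of Nid1, fell from 3.43 and 2.36 to 0.846 and 0.980 CPM (-1.66, 0.0488), a call lost with DESeq2 (0.0840), with limma-voom (0.0579), without composition factors (0.0711), with the replicate block (0.0501, and 0.0726 with the length offset added), without control 1 (0.424) and without control 2 (0.0976). Ccn5 and Comp rose with log2 fold changes of 0.79 (0.0367) and 2.59 (0.0445), both lost without control 1 (0.307 and 0.219), without control 2 (0.268 and 0.120) and without composition factors (0.0539 and 0.0786). The call of Ccn5 was also lost with the replicate block (0.0930), and that of Comp with DESeq2 (0.0696), with limma-voom (0.0522) and without UBXN9 2 (0.0683). Across this list, leaving out 1 library gave 4 and 3 higher and 3 and 3 lower without control 1 and control 2, and 14 and 9 higher and 6 and 10 lower without UBXN9 1 and UBXN9 2.

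Among further proteases, inhibitors and crosslinkers, 20 of 33 were tested, and 4 rose and 2 fell (30% of those tested). Plau, encoding a plasminogen activator, fell from 8.01 and 8.39 to 2.59 and 2.90 CPM (log2 fold change -1.57, edgeR adjusted p = 0.0135, and 0.0646 without control 2). Mmp3, encoding stromelysin-1, rose from 3.47 and 4.08 to 14.6 and 13.0 CPM (log2 fold change 1.87, edgeR adjusted p = 0.00544), and Mmp16, a membrane-bound protease, from 1.68 and 1.63 to 8.66 and 9.46 CPM (2.45, 0.00287). Tgm2, a transglutaminase that crosslinks matrix, rose from 47.6 and 48.9 to 90.1 and 86.0 CPM (0.87, 0.0171), and Mmp19 fell from 51.0 and 51.8 to 30.6 and 26.7 CPM (-0.84, 0.0269). Both of these calls were lost when either control was left out, with adjusted p of 0.179 and 0.186 for Tgm2 and 0.138 and 0.223 for Mmp19, without control 1 and control 2, and that of Mmp19 also with the replicate block (0.0601).

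**Figure D5:**
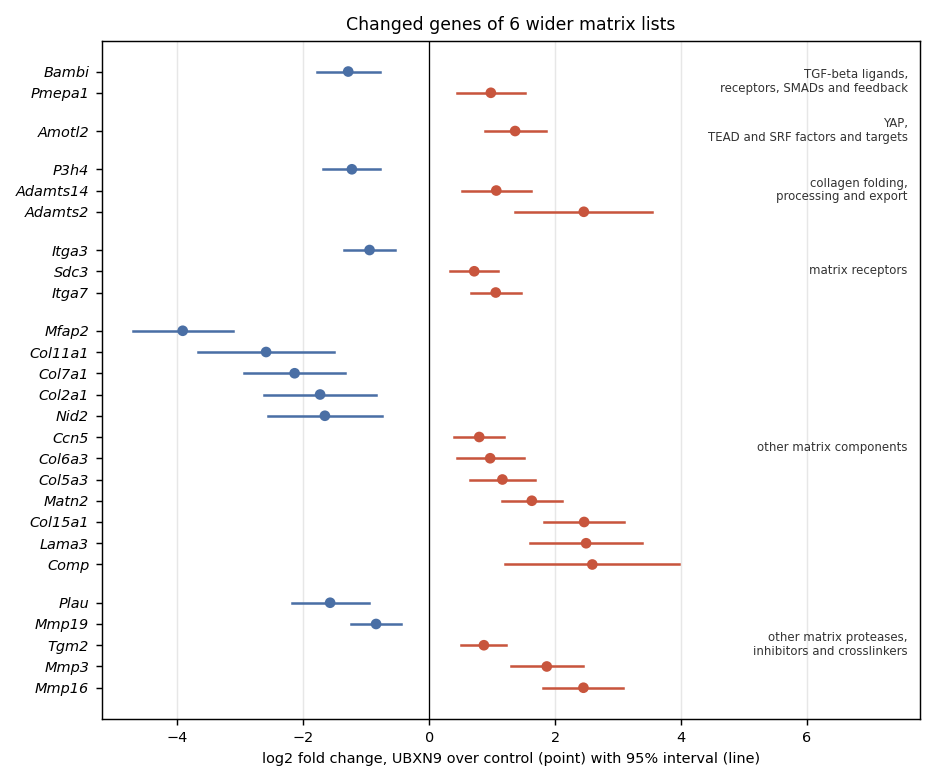
The log2 fold change of UBXN9 over control with its 95% interval is drawn for 26 of the 27 called genes of the 6 wider lists. Red points rose and blue points fell; Mfap2 lies farthest to the left at -3.92 and Comp, whose interval is the widest, farthest to the right at 2.59, a call that DESeq2 and limma-voom did not make.

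Of the matrix receptors, 19 of 26 were tested, and 2 rose and 1 fell (15.8% of those tested). Itga7, an integrin chain that binds laminin, rose from 17.2 and 17.9 to 35.9 and 36.9 CPM (log2 fold change 1.06, edgeR adjusted p = 0.0123), and Sdc3, a syndecan, had a log2 fold change of 0.71 (0.0445). Itga3, another laminin-binding integrin chain, fell from 164 and 166 to 76.2 and 95.01 CPM (-0.95, 0.0195). Without control 2 the adjusted p was 0.107 for Itga7, 0.447 for Sdc3 and 0.103 for Itga3. Without control 1 it was 0.0867 for Itga7 and 0.238 for Sdc3, and the Sdc3 call was also lost without composition factors (0.106) and with the replicate block (0.132, and 0.0553 with the length offset added). TGF-beta ligands, receptors, SMADs and feedback genes were all 23 tested, with 1 higher and 1 lower. That is 8.70%, near the 7.44% of all genes tested. Pmepa1, a feedback inhibitor of TGF-beta signalling, rose (log2 fold change 0.98, edgeR adjusted p = 0.0482) and Bambi, a decoy receptor, fell from 18.2 and 18.5 to 8.01 and 7.05 CPM (-1.29, 0.0135). Without control 2 the adjusted p was 0.416 for Pmepa1 and 0.0800 for Bambi. The call of Pmepa1 was also lost without control 1 (0.238), without composition factors (0.0876), with the filter of 5 CPM in 2 libraries (0.0519) and with the replicate block (0.127, and 0.0608 with the length offset added). YAP, TEAD and SRF factors and targets gave 1 call in 27 tested of 30, which is 3.70%, under the 7.44% of all genes tested. Amotl2, a YAP-binding protein and YAP target, rose from 13.5 and 11.4 to 28.9 and 35.2 CPM (1.36, 0.00996, and 0.0638 without control 2).

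Markers of other cell types were read in the same libraries, since a culture could hold more than 1 cell type, and since in bulk RNA fewer cells of a type and less RNA per cell cannot be told apart. The 15 stellate cell and fibroblast markers summed to 415 to 428 CPM in the controls and 515 to 533 CPM in the UBXN9 libraries. Of these, 8 were tested and 0 were called by edgeR, DESeq2 or limma-voom, with 1 higher and 1 lower at an unadjusted p under 0.05. Pdgfrb, a PDGF receptor, had 174, 162, 196 and 240 CPM, Pdpn 130, 139, 205 and 185 CPM, and Hand2 70.5, 71.6, 55.0 and 47.8 CPM, while Reln and Fap had 0 counts and Lrat, the enzyme that stores retinoids in stellate cells, 1 count in all. Endothelial markers summed to 5.13 to 5.42 CPM in the controls and 7.8 to 8.11 CPM in the UBXN9 libraries with 0 called by edgeR, DESeq2 or limma-voom and 1 higher at an unadjusted p under 0.05. Myeloid markers summed to 56.6 to 57.1 and 66.1 to 74.2 CPM, mostly Cd14, with 1 called (Lyz2, log2 fold change 1.82, edgeR adjusted p = 0.0408, and 0.283 without control 2 and 0.0797 without composition factors), and Ptprc, the pan-leukocyte gene, held 0, 0, 3 and 1 counts. No lymphoid marker reached 10 counts in any library. The part of other cell types in the members' changes was not tested.

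The cells are labelled as liver cancer cells, and their defining liver genes were nearly absent in both groups. Alb had 0 counts in all 4 libraries and Hnf4a 1 count. Sox9, a biliary and progenitor factor, had 168, 174, 194 and 208 CPM and was not called (edgeR adjusted p = 0.447). The 12 liver and epithelial markers summed to 180 to 190 CPM in the controls and 200 to 213 CPM in the UBXN9 libraries. Most of each sum was Sox9, so the sums follow that gene and do not describe the other markers. Of the 12 markers, 6 were tested and 2 fell. These were the keratin genes Krt18 and Krt19, with log2 fold changes of -3.66 (edgeR adjusted p = 0.00972, and -4.58 and -3.00 on the log2 scale without UBXN9 1 and UBXN9 2) and -1.69 (0.0294, and 0.143 without control 2). The keratin gene Krt8 was not called (log2 fold change -0.54, edgeR adjusted p = 0.643), and Cdh1, encoding E-cadherin, held 5, 3, 9 and 14 counts. Per kilobase in control cells, Vim stood at 555 CPM and Fn1 at 221 CPM, beside 41.4 CPM for Sox9, 4.70 CPM for Krt19 and 1.97 CPM for Krt18.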

How the data were processed

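RNA-seq of 4 libraries was analysed from the table that the authors deposited, which holds estimated counts per gene that are not scaled to library size. Per the submitters' processing notes, the build was GRCm38.p6 and the tools were HTSeq and HISAT2 2.1.0. The annotation, the counting settings and the handling of strand are not given in the sources used here. Counts were rounded, which touched 15 of the 46 members, and 241 unannotated loci (0.302% to 0.535% of the counts) were left out. Positions, exon lengths and overlaps came from GENCODE M21 (55227 of 55487 identifiers matched), and promoters from RefSeq.

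The comparison used edgeR 4.0.16 under R 4.3.3 (TMM factors, filterByExpr, two-sided quasi-likelihood F test, Benjamini-Hochberg adjustment over 13230 genes, threshold 0.05), after testing on simulated data. Exact Clopper-Pearson 95% intervals cover counting error only. The alternatives were RLE factors, no composition factors, no filter, 5 CPM in 2 libraries, DESeq2 1.42.0, limma-voom (limma 3.58.1), a replicate block, a length offset, both together, a threshold of 0.01 and leaving out each library, where the spread of a lone library is taken from the other group. A crossed replicate block was chosen after seeing the data. Figures used matplotlib 3.10.9.

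The members and all lists were chosen with earlier results of these data known. Named were Aspscr1, all 46 members, from each wider list up to 4 called genes with the smallest p in each direction, and from each marker list up to 4 of the genes with the highest counts, given 10 counts in any library. Col6a3, Nid2, Ccn5, Comp, the defining markers at or near 0 and the promoter motifs were chosen after values were seen. Of the called genes, 1 that the rule names is not reported here.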

Additional observations from a re-analysis of the deposited data

Results flagged for a closer look

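The loci outside the annotation, which enter no comparison here, took 0.381% and 0.535% of the deposited counts in UBXN9 1 and UBXN9 2, above the 0.307% and 0.302% in the controls. None of the members' values rests on these loci.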

How the results depend on the processing

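Col1a1, Col4a1, Col18a1, Thbs1, Acta2 and Cygb kept their direction and call in the 14 alternatives judged at an adjusted p of 0.05, and the other 4 called members kept their direction in all 14. At the stricter 0.01 Col4a1 (0.0122) was not called, nor were those 4. The members gave 5 higher and 5 lower, all genes 669 and 315, and the wider lists 17 and 10. With no filter these were 8 members higher, 1144 and 683 genes, and 27 and 16 in the wider lists. At an adjusted p of 0.01 they were 3 and 2, 310 and 88, and 7 and 1. The length offset gave 533 genes lower and 26 of the wider lists higher, and no composition factors 10 higher there. Leaving out 1 library gave 3 to 11 members higher and 3 to 11 lower, 373 to 1611 and 135 to 1318 genes, and 5 to 35 and 4 to 25 in the wider lists, and a median over the members of -0.031 to 0.12 against -0.00235. The low ends came without a control and the high ends without a UBXN9 library, and the controls differed less from each other (median absolute log2 difference 0.199) than the UBXN9 libraries (0.313). The cause of these shifts was not tested.

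The deviations of libraries with the same replicate number had a correlation of -0.37. This value cannot decide whether the numbers mark shared cultures, because the differences within both groups also varied with gene length. The replicate block gave 6 members higher (Tagln added) and 4 lower (Snai1 lost), 640 and 292 genes, and 15 and 8 in the wider lists. The crossed pairing gave 14 and 12 members, 1776 and 1361 genes, and 38 and 26 in the wider lists.

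Signs turned in 10 members, none of them called. P4ha1 (0.0029) was -0.0904 with no composition factors, -0.0114 with no filter, -0.000645 with DESeq2, -0.000255 with limma-voom, -0.000625 with the replicate block, -0.00191 with the length offset, -0.00403 with both and -0.0006995 with the crossed block. With no composition factors P4ha2 was -0.016 and Cdh2 -0.063, and Tnc was 0.014 with the length offset, alone or with the block. Leaving out 1 library gave ranges across 0 for Cdh2 (-0.18 to 0.26), Col5a1 (-0.37 to 0.080), Lamc1 (-0.58 to 0.092), Nid1 (-1.01 to 0.064), P4ha1 (-0.13 to 0.12), P4ha2 (-0.042 to 0.19), Snai2 (-0.18 to 0.40), Timp1 (-0.18 to 0.12), Tnc (-0.17 to 0.14) and Vim (-0.15 to 0.074). Depth limits Eln, Postn, Ccn2 and Loxl1, which had at most 12 counts in any library.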
